A study of Mus musculus with 474 samples.

Results

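The comparison described here sets the muscles of 50 Diversity Outbred mice with high H19 RNA against those of 50 mice with low H19 RNA. The 100 animals were 21.1% of the series, and the other 185 females and 189 males belonged to neither class. All libraries were first divided into 10 groups by sex and by a number in their names that is read here as the generation (17, 18, 19, 21 or 23). Within each group the animals were ranked by the deposited variance-stabilized H19 value. The 5 highest were taken as H19-high and the 5 lowest as H19-low, so each class held 25 females and 25 males and the same number from every generation. Because the classes were chosen by H19, the difference in H19 itself is a description and was not tested. All other genes were compared between the classes, with the group as a covariate.

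Diversity Outbred mice descend from 8 inbred founder strains and each animal carries its own mixture of their alleles, so no animal has a genetic duplicate. All animals, in both classes alike, were fed a diet with 45% fat that was also high in sugar, and tissue was taken at 22 weeks of age. RNA was read from polyA-selected bulk gastrocnemius, a calf muscle made mostly of fast fibres. H19 was not manipulated in any animal, there was no untreated group, and the labels give neither the parent nor the founder from which an allele came.

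H19 is an imprinted long noncoding RNA that is transcribed from the maternal chromosome. It shares enhancers with its neighbour Igf2, the paternally expressed gene for insulin-like growth factor 2, and the methylation of a control region between them sets which gene the enhancers reach. H19 is abundant in the embryo and is switched off after birth in most tissues, while skeletal muscle keeps it. Its transcript is also the precursor of the microRNA miR-675. In the annotation deposited with the data (GRCm38), H19 lies on the minus strand at chr7:142575529-142578143. The mature microRNAs cut from the transcript are shown because their seeds are what pairs with target RNAs. RefSeq places both on the same strand, miR-675-5p at chr7:142577112-142577133 and miR-675-3p at chr7:142577078-142577099 (GRCm38.p6). They are printed 5′ to 3′ with the seed, bases 2 to 8, in capitals.

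mmu-miR-675-5p: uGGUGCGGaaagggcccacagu
mmu-miR-675-3p: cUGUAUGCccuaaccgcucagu

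The seeds differ, so the arms do not belong to one seed family. PolyA selection does not retain mature microRNAs, so the H19 values below are those of the long transcript.

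H19 was among the well-expressed RNAs of this muscle, with a median of 538.5 CPM (counts per 1000000 reads of the TMM-scaled library size) over all females and 255.7 CPM over all males. The 25 H19-high females ranged from 827 to 1755 CPM with a median of 1121, and the 25 H19-low females from 170.8 to 352.6 CPM with a median of 290.2. In males the high class ranged from 368.2 to 909 CPM with a median of 443.4, and the low class from 87.8 to 173 CPM with a median of 139. The median of the H19-high males lay below the median of all females. The ratio of the class medians lay between 3.05 and 4.44 in the 10 groups. H19 formed a continuum and the cut fell inside it. On the variance-stabilized scale, which is close to log2, the last animal taken as high stood between 0.00968 and 0.179 above the first one left out, and the last animal taken as low between 0.00354 and 0.135 below the first one left out.

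**Figure D1:**
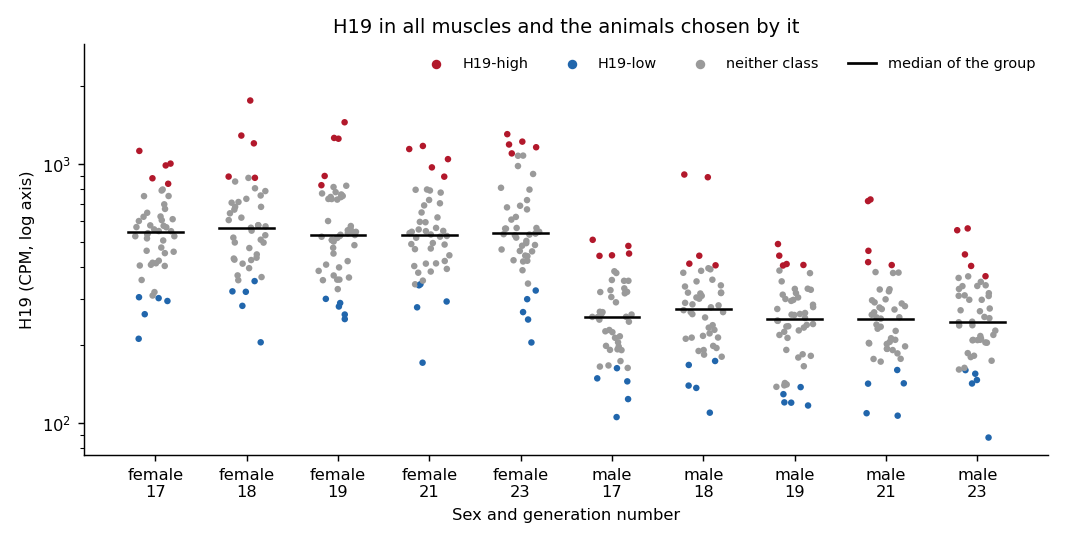
H19 in CPM (log axis) in each muscle of the series, by sex and generation number, with the 5 highest animals of each group in red, the 5 lowest in blue and the others in grey; black lines are group medians. Female medians lie between 530.2 and 566.6 CPM and male medians between 245.2 and 275.9 CPM, and the coloured points adjoin the grey ones.

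The depth of the libraries overlapped between the classes. In units of 1000000 assigned reads it was 57.0 to 109 in H19-high animals (median 81.5) and 56.2 to 130 in H19-low animals (median 79.5). The mean difference, high minus low, was -1.94 such units (2-sided permutation test within groups, p = 0.525). The summed level of genes that define skeletal muscle ran from 81264 to 127893 CPM in the high class (median 102525) and 79435 to 118938 CPM in the low class (median 102846). One H19-low female carried sex-linked RNA against its label, as did 4 animals of neither class. That female, of generation 17, and one of the 4, a male of generation 19, have columns in exchanged places relative to the sample list, and without the libraries against their labels 90.7% of the genes called below were still called. Runs of consecutive library numbers, used as a stand-in for processing order, held unequal shares of the classes. The 5 such blocks held, in order, 8, 15, 4, 14 and 9 high animals and 8, 9, 9, 10 and 14 low animals. With the block as a covariate, 91.1% of the genes called below were still called.

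Across the other genes, 1142 of 18615 tested differed between the classes at an adjusted p under 0.05 (edgeR quasi-likelihood test, Benjamini-Hochberg), which is 6.13% of them. Of the genes tested, 3.23% were higher and 2.91% lower in H19-high muscle. The differences were small, with a median absolute log2 difference of 0.21 among the called genes, and 94 genes (0.505%) differed by at least 1.5-fold. No gene separated the classes completely: for all 18615 the ranges of the high and low animals overlapped. Leaving out the highest and the lowest animal of every group, which leaves 4 and 4, lowered the shares to 1.14% higher and 0.824% lower. Because the counting is not stated to use strand, the 38.4% of called genes that overlap another gene, Oxct1, Rbm3, Acadl and Igf2 among them, may share reads with it. The counts over all genes are the background for every list below. Most of the called genes named below were also followed under 24 alternative settings (other tests, filters, scaling, covariates or animals), and the number of settings that called it is given for those called in fewer than 20.

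Enzymes that burn fat and ketone bodies in mitochondria were higher in H19-high muscle. Oxct1 (chr15:4026383-4155344), which activates ketone bodies for oxidation, ranged from 197.8 to 491.02 CPM in H19-high animals (median 310.3) and from 138.2 to 353.3 CPM in H19-low animals (median 216). It was the gene with the smallest p, higher by 0.49 ± 0.06 (log2 ± SE, n = 50 and 50; adjusted p = 2.86e-08), and its mean was higher in all 10 groups. The ranges overlapped, and 49 of 50 high animals exceeded the median of the low animals. Bdh1, the enzyme before it that interconverts the ketone bodies, ranged from 13.03 to 120 CPM with a median of 51.1 in the high class and from 5.76 to 73.0 CPM with a median of 26.9 in the low class. Its difference was 0.81 ± 0.13 (adjusted p = 1.82e-05). The acetyl-CoA synthetases Acss2 and Acss1, which make acetyl-CoA from acetate, were higher by 0.28 ± 0.04 and 0.43 ± 0.07 (adjusted p = 1.27e-05 and 3.88e-05). In all, 4 of 8 ketone and acetate enzymes rose and none fell, with a median log2 difference of 0.24 against 0.00199 over all genes tested. This list, like those of fatty acid oxidation, branched-chain amino acids, the tricarboxylic acid cycle, respiration, glycolysis, pyruvate and lactate, fatty acid synthesis and heat-shock proteins, was assembled after the values had been seen.

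Of 19 enzymes of mitochondrial fatty acid oxidation, 18 rose and none fell (median 0.19). The called members were higher by 0.12 to 0.30. Acadl, the long-chain acyl-CoA dehydrogenase, ranged from 223.2 to 487.5 CPM (median 310.99) in H19-high animals and from 168.3 to 341.8 CPM (median 256.2) in H19-low animals, a difference of 0.30 ± 0.04 (adjusted p = 1.09e-06). Both subunits of the trifunctional protein rose, Hadhb by 0.26 ± 0.04 and Hadha by 0.24 ± 0.04 (adjusted p = 1.59e-06 and 1.48e-05). The carnitine palmitoyltransferases, which bring long-chain fatty acids into the mitochondrion, were higher by 0.27 ± 0.05 for Cpt2 and 0.15 ± 0.04 for the muscle form Cpt1b (adjusted p = 5.30e-05 and 0.00449). Lpl, the lipase that releases fatty acids from circulating lipoproteins, ranged from 501.1 to 1320 CPM (median 768.6) in the high class and from 377.8 to 829.9 CPM (median 579.3) in the low class. It was higher by 0.45 ± 0.06 (adjusted p = 5.26e-07) and its mean was higher in all 10 groups. Ppara, a nuclear receptor that drives fat oxidation genes, was higher by 0.31 ± 0.08 (adjusted p = 0.00617). Pdk4, the kinase that restrains pyruvate oxidation, was higher by 0.37 ± 0.11 (adjusted p = 0.0325), a call made in 13 of the 24 settings (adjusted p up to 0.411). In a broader list of 21 fuel-use genes 11 rose and 2 fell.

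Enzymes that break down branched-chain amino acids moved the same way, with 9 of 20 higher, none lower and a median of 0.12. Dbt, a subunit of the branched-chain ketoacid dehydrogenase, was higher by 0.28 ± 0.06 (adjusted p = 0.00118) and Ppm1k, the phosphatase that activates that complex, by 0.34 ± 0.07 (adjusted p = 0.000665). The acyl-CoA dehydrogenases of the pathway, Acadsb and Ivd, were higher by 0.24 ± 0.05 and 0.26 ± 0.04 (adjusted p = 0.000440 and 2.03e-05).

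Other mitochondrial and glycolytic genes are given by list, with no test between lists. Of 18 tricarboxylic acid cycle enzymes 3 rose and none fell (median 0.03), and citrate synthase (Cs), often used as a gauge of mitochondrial content, had medians of 719 and 714 CPM in the high and low class (adjusted p = 0.759). Of 95 nuclear genes of the respiratory chain and ATP synthase 3 rose and none fell (median 0.03). Reads of mitochondrial DNA genes made up 7.12% to 17.1% of all reads in H19-high libraries (median 10.04%) and 7.01% to 16.7% in H19-low libraries (median 9.87%). On the glycolytic side 4 of 12 enzymes fell and none rose (median -0.12), among them Pkm, muscle pyruvate kinase, by -0.19 ± 0.04 (adjusted p = 0.00197), Pfkm, muscle phosphofructokinase, by -0.12 ± 0.04 (adjusted p = 0.0244) and Gpd2, the mitochondrial glycerol phosphate dehydrogenase, by -0.26 ± 0.05 (adjusted p = 5.87e-05). Ldhb, the heart-type lactate dehydrogenase subunit, was higher by 0.43 ± 0.07 (adjusted p = 2.89e-05), and Pdp2, a phosphatase that activates pyruvate dehydrogenase, by 0.66 ± 0.10 (adjusted p = 5.35e-06). The Pfkm call was made in 15 of the 24 settings. Ldhb and Pdp2 belong to a list of 15 pyruvate and lactate enzymes, of which 4 rose and 1 fell.

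**Figure D2:**
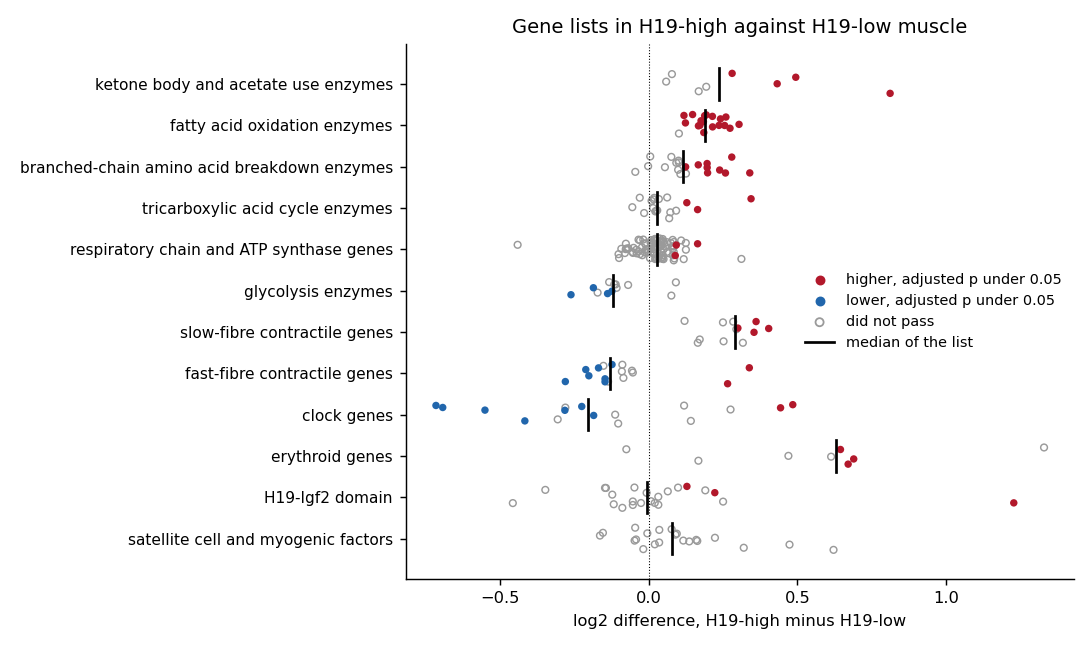
log2 difference, H19-high minus H19-low, for each tested member of 12 gene lists; red points passed the test as higher, blue as lower, open grey circles did not pass, and black bars are list medians. The fatty acid oxidation members all lie right of zero, the glycolysis and fast-fibre medians lie left of it at -0.12 and -0.13, and the medians of the H19-Igf2 domain and of respiratory chain genes lie near zero at -0.01 and 0.03.

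Some contractile genes of both fibre types differed. All 12 slow-fibre genes had higher means in H19-high muscle and 4 of them passed (median 0.29), namely Myoz2, a Z-disc protein, at 0.35 ± 0.07, the slow calcium pump Atp2a2 at 0.36 ± 0.08, the slow calsequestrin Casq2 at 0.40 ± 0.11 and the slow myosin light chain Myl2 at 0.30 ± 0.10 (adjusted p = 0.000360, 0.00225, 0.0129 and 0.0436). The Myl2 call was made in 11 of the 24 settings and that of Casq2 in 18. Myh7, the slow myosin heavy chain itself, ranged from 410 to 3832 CPM in the high class and from 208 to 2647 CPM in the low class, and its difference of 0.29 ± 0.10 did not pass (adjusted p = 0.0693). Among 16 fast-fibre genes 7 fell and 2 rose (median -0.13). The 2 that rose were the heavy chains of the IIa and IIx fibres, Myh2 by 0.34 ± 0.07 and Myh1 by 0.27 ± 0.06 (adjusted p = 0.00117 and 0.00187). Myh2 ranged from 2739 to 9331 CPM (median 4218) in the high class and from 1635 to 5934 CPM (median 3372) in the low class, and its mean was higher in all 10 groups. Those that fell included Myh4, the heavy chain of the fastest IIb fibres, by -0.17 ± 0.04, the fast tropomyosin Tpm1 by -0.21 ± 0.04, the calcium buffer Pvalb by -0.28 ± 0.05 and the fast light chain Mylpf by -0.15 ± 0.05 (adjusted p = 0.00498, 0.000103, 0.000105 and 0.0339). Pvalb ranged from 2122 to 5647 CPM (median 3837) in the high class and from 3075 to 6548 CPM (median 4621) in the low class, and 5 of 50 high animals exceeded the median of the low animals. The Mylpf call was made in 14 of the 24 settings. Myoglobin (Mb), the oxygen store of oxidative fibres, was higher by 0.25 ± 0.06 (adjusted p = 0.00508), a call made in 19 of the 24 settings.

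In bulk RNA a change in the number of fibres of a type and a change in RNA per fibre cannot be told apart. When the mean levels of slow-fibre, adipocyte, macrophage, matrix, Schwann cell, endothelial and erythroid genes were added as covariates, 1.54% of genes were higher and 1.17% lower. Members of those lists are part of the covariates, so their own calls in that fit are not informative. Slow-fibre genes were the only fibre list among them, so a shift among fast fibre types had no covariate of its own. Of the lists above, 13 fatty acid oxidation enzymes, 4 ketone and acetate enzymes and 8 branched-chain amino acid enzymes were still called as higher in that fit. In it no atrophy gene was higher, 2 fast-fibre genes, 3 glycolysis enzymes and 2 junction genes were lower, and of the clock genes 1 was higher and 2 were lower.

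Genes of the neuromuscular junction were partly lower. Of 24 denervation and junction genes 4 fell and none rose, with a median of 0.14 that had the opposite sign. Those that fell were Ache, the acetylcholinesterase, by -0.35 ± 0.07, Chrne, the adult subunit of the acetylcholine receptor, by -0.37 ± 0.08, Ky, a cytoskeletal protein needed for muscle maintenance, by -0.39 ± 0.09, and Dok7, an organizer of the junction, by -0.23 ± 0.06 (adjusted p = 0.000543, 0.000825, 0.00143 and 0.0129). The Dok7 call was made in 18 of the 24 settings. Of 21 genes of muscle atrophy and growth control 5 rose and none fell (median 0.16). Fbxo32, the ubiquitin ligase atrogin-1, ranged from 295.9 to 2832 CPM with a median of 707.5 in H19-high animals and from 183.1 to 1032 CPM with a median of 465.3 in H19-low animals (0.53 ± 0.12, adjusted p = 0.00225). Bnip3 and Ctsl, which act in autophagy and lysosomal breakdown, were higher by 0.25 ± 0.06 and 0.22 ± 0.06 (adjusted p = 0.00432 and 0.0153), and the Ctsl call was made in 19 of the 24 settings.

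No gene of the myogenic program passed with the sexes together. Of 21 satellite cell and myogenic genes none rose or fell at the threshold (log2 differences from -0.16 to 0.62, median 0.08, smallest adjusted p = 0.0677). Myod1 and Myog, the transcription factors of myoblast commitment and fusion, had differences of 0.32 ± 0.14 and 0.47 ± 0.18 (adjusted p = 0.159 and 0.0932), and Pax7, which marks satellite cells, of -0.15 ± 0.11 (adjusted p = 0.499). Within females alone Myog passed (0.82, adjusted p = 0.0439), while in males it was 0.12 (adjusted p = 0.886), and the test of that difference between the sexes did not pass (adjusted p = 0.553). None passed either among 16 immediate-early genes, 14 developmental muscle genes, 20 genes of mitosis and 28 collagen and matrix genes, whose best known member Col1a1 ranged from 46.8 to 803 CPM in the high and from 71.2 to 600.2 CPM in the low class (-0.24 ± 0.13, adjusted p = 0.293). Of 16 genes named in the literature as partners of H19 or targets of miR-675, Hmga2, a chromatin protein of growing cells, was lower by -0.54 ± 0.15 (adjusted p = 0.0176), a call made in 17 of the 24 settings, and the other 15 did not pass. Ahcy, an enzyme reported to bind H19, had medians of 11.2 and 11.1 CPM (0.25 ± 0.21, adjusted p = 0.569).

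In the chromosomal neighbourhood of H19, 3 of 17 tested genes within 0.5 Mb passed, all higher in H19-high muscle (17.6%, against 6.10% on the other chromosomes). Igf2 lies at chr7:142650766-142666816 on the same strand as H19. It ranged from 14.5 to 46.7 CPM with a median of 24.4 in the high class and from 13.4 to 40.0 CPM with a median of 22.1 in the low class, so the ranges nearly coincided. Its difference of 0.22 ± 0.07 was just inside the threshold (adjusted p = 0.0416), was positive in 8 of 10 groups, and passed in neither sex alone (females 0.25, adjusted p = 0.162; males 0.19, adjusted p = 0.400). The call was lost under limma (adjusted p = 0.0553) and when 2 H19-high females, those with the most erythroid RNA and the most Fbxo32, were left out (adjusted p = 0.0637). In all, 11 of the 24 settings called it. It was also lost with the cell-type and fibre scores as covariates (adjusted p = 0.204) and without any 1 rank at each end (adjusted p = 0.0746 to 0.174).

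Mrpl23, a gene of the mitochondrial ribosome at chr7:142532686-142540747, had the largest difference of the neighbourhood, 1.23 ± 0.31 (adjusted p = 0.00719). It ranged from 0.668 to 31.9 CPM with a median of 6.74 in the high class and from 0.744 to 14.2 CPM with a median of 1.33 in the low class. The call was lost without generation 17 (0.99, adjusted p = 0.0993), without the fifth rank at each end (1.02, adjusted p = 0.0872) and with 3 animals at each end (1.18, adjusted p = 0.104). Its values fell into separate low and high modes. In males 16 of 25 H19-high animals and 6 of 25 H19-low animals were above 5 CPM, a cut placed after the values were seen, and in females 10 of 25 and 8 of 25 were. Among animals of neither class 71 of 189 males and 71 of 185 females were above it. Ctsd, the lysosomal protease cathepsin D, was higher by 0.13 ± 0.04 (adjusted p = 0.0261), a call made in 14 of the 24 settings (adjusted p up to 0.387).

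The remaining 14 genes within 0.5 Mb had log2 differences between -0.46 and 0.25 and none passed (smallest adjusted p = 0.127). They included the fast troponin genes Tnnt3 and Tnni2 (-0.05 ± 0.03 and -0.09 ± 0.04, adjusted p = 0.352 and 0.195), the leukocyte gene Lsp1 (-0.14 ± 0.06, adjusted p = 0.131), and the noncoding RNA Nctc1, which is transcribed across muscle enhancers of the domain and ranged from 74.0 to 204 CPM in the high and from 90.5 to 217 CPM in the low class (-0.12 ± 0.07, adjusted p = 0.336). The others were Dusp8, Ifitm10, Syt8, Prr33, Igf2os, Th, Tspan32, R74862, Cd81 and Tssc4. Over the whole listed domain, 3 of 23 tested genes rose and none fell, with a median of -0.01.

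**Figure D3:**
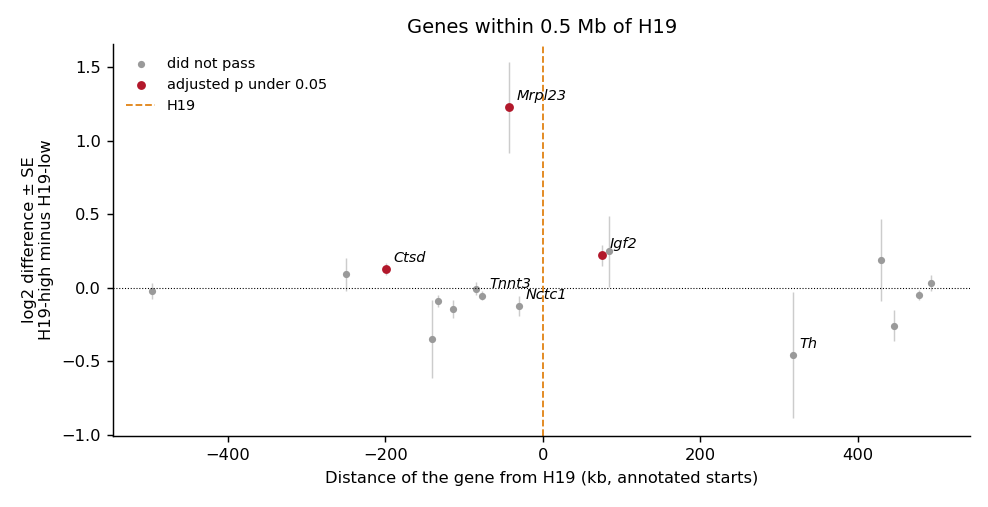
log2 difference ± SE, H19-high minus H19-low, for the 17 tested genes within 0.5 Mb of H19, against the distance in kb between annotated starts; red points passed the test. Mrpl23 at 1.23 stands apart, Igf2 and Ctsd lie just above zero, and the grey points did not pass.

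Imprinted genes on other chromosomes or farther away followed no common direction. Of 51 tested, 1 rose and 4 fell, with a median of -0.01. Nnat, a paternally expressed proteolipid gene of endocrine and fat tissue, ranged from 0.338 to 17.9 CPM (median 2.95) in H19-high animals and from 0.695 to 37.9 CPM (median 8.09) in H19-low animals, a difference of -1.22 ± 0.23 (adjusted p = 0.000186). Mest, a paternally expressed gene of fat expansion, was lower by -0.62 ± 0.16 (adjusted p = 0.0103). Blcap, the gene that encloses Nnat, and Herc3 were lower by -0.14 ± 0.04 and -0.17 ± 0.05, and the noncoding Peg13 was higher by 0.20 ± 0.05 (adjusted p = 0.0141, 0.0157 and 0.00466). The calls of Blcap, Herc3 and Mest were made in 15, 18 and 19 of the 24 settings. The counts of Blcap and Nnat, which overlap, may share reads. The imprinted genes Dlk1, Meg3 and Igf2r had differences of -0.37 ± 0.20, -0.16 ± 0.08 and 0.08 ± 0.03 and did not pass (adjusted p = 0.306, 0.256 and 0.146), nor did Igf1 of the insulin-like growth factor axis at 0.13 ± 0.10 (adjusted p = 0.545). Rian, Grb10, Cdkn1c, Smad1 and Smad5 did not pass either. Of 20 tested genes of the growth factor axis, Igf2 was the one that rose and none fell.

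Lep, the gene for the fat hormone leptin, was lower in H19-high muscle. It ranged from 0.0595 to 32.8 CPM (median 2.76) in the high class and from 0.619 to 96.9 CPM (median 9.01) in the low class, a difference of -1.73 ± 0.35 (adjusted p = 0.000474). In females the medians were 2.20 and 13.98 CPM and in males 7.02 and 7.74 CPM. In males alone the difference of -0.53 did not pass (adjusted p = 0.725), and neither did the test of the difference between the sexes (adjusted p = 0.196). The other 11 adipocyte genes did not pass, and the summed level of the list ran from 848 to 3623 CPM in the high class and from 778 to 2929 CPM in the low class. Of the other cell types, 3 of 8 erythroid genes rose (Hbb-bs, Hbb-bt and Alas2, by 0.64 ± 0.17, 0.69 ± 0.22 and 0.67 ± 0.21, adjusted p = 0.0122, 0.0370 and 0.0424), calls made in 15, 11 and 11 of the 24 settings. The summed erythroid level reached 2856 CPM in the high class and 501.5 CPM in the low class, with medians of 221.7 and 197.5 CPM. Without the H19-high female with the most erythroid RNA and the H19-high female with the most Fbxo32, an alternative chosen after seeing the data, 1 erythroid gene was still called and 2.91% of all genes were higher and 2.43% lower. Of 13 macrophage genes 2 rose, Lyz2 by 0.41 ± 0.12 and C1qa by 0.27 ± 0.08 (adjusted p = 0.0272 and 0.0314), and the summed level ran from 75.3 to 272.2 CPM against 48.7 to 219.1 CPM. Of 12 endothelial genes 2 rose, Flt1 by 0.15 ± 0.04 and Vwf by 0.20 ± 0.06 (adjusted p = 0.0201 and 0.0324), and of 13 fibro-adipogenic progenitor genes 2 rose, Ly6a by 0.31 ± 0.08 and Pdgfra by 0.13 ± 0.04 (adjusted p = 0.00893 and 0.0455). The calls of Lyz2, C1qa, Flt1, Vwf and Pdgfra were made in 16, 16, 17, 12 and 13 of the 24 settings. List medians in females and males were 0.42 and 0.02 for macrophage genes and 0.15 and -0.0035 for endothelial genes. For fibro-adipogenic progenitor genes they were 0.09 and -0.05. No called gene of these lists passed the test of the difference between the sexes (smallest adjusted p = 0.378, for C1qa). No Schwann cell, smooth muscle or pericyte gene passed, and of 7 brown fat genes 1 rose, namely Ppara, which is given above with the fat oxidation genes. The part of these cells in the differences above was not tested beyond the fit with their mean levels as covariates.

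Rbm3, an RNA-binding protein known for induction by mild cold, ranged from 18.4 to 93.6 CPM (median 41.1) in H19-high animals and from 37.1 to 102 CPM (median 61.9) in H19-low animals, a difference of -0.57 ± 0.08 (adjusted p = 5.97e-07). In males alone it was -0.23 and did not pass (adjusted p = 0.247). The related Cirbp, named after its value was seen, was lower by -0.33 ± 0.06 (adjusted p = 5.73e-05). Of 21 heat-shock proteins and partners 7 rose and none fell (median 0.12), among them Hsph1 by 0.42 ± 0.08 and the mitochondrial chaperonin Hspd1 by 0.21 ± 0.04 (adjusted p = 0.000125 and 0.000224).

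Of 16 clock genes 2 rose and 7 fell (median -0.21). The median was -0.28 in females and -0.04 in males. Arntl and Npas2, which encode activators of the loop, were higher by 0.44 ± 0.10 and 0.48 ± 0.13 (adjusted p = 0.00140 and 0.00941). Arntl ranged from 10.6 to 60.1 CPM (median 36.4) in the high class and from 11.5 to 46.9 CPM (median 26.0) in the low class. The 7 that fell were Tef, Hlf and Nr1d2, by -0.19, -0.28 and -0.23 (adjusted p = 0.00890, 0.0198 and 0.0329), and Bhlhe41 by -0.55 ± 0.10, Ciart by -0.69 ± 0.16, Dbp by -0.72 ± 0.20 and Per3 by -0.42 ± 0.11 (adjusted p = 0.000152, 0.00276, 0.0199 and 0.0142). Bhlhe41 ranged from 7.19 to 70.1 CPM (median 24.6) in the high class and from 16.8 to 71.7 CPM (median 34.5) in the low class, so the ranges overlapped widely. The Dbp call was made in 12 of the 24 settings (adjusted p up to 0.279) and that of Per3 in 16. Other genes that the activators switch on did not pass, namely Per1, Per2, Nr1d1, Cry2 and Cry1 at -0.31, -0.28, -0.10, -0.11 and 0.12 (adjusted p = 0.107, 0.314, 0.610, 0.354 and 0.135). In females Arntl was 0.74 and Dbp -1.35 (adjusted p = 0.000246 and 0.00180), and in males 0.15 and -0.10 (adjusted p = 0.695 and 0.921). The tests of these differences between the sexes did not pass (adjusted p = 0.251 and 0.239), while that of Bhlhe41 did, at -0.97 in females and -0.14 in males (adjusted p = 0.0383). The labels give no hour of tissue collection. The activators bind the E-box CACGTG, and the RefSeq promoters of 3 of the 7 genes that fell, Tef, Ciart and Bhlhe41, hold it. Those of Ciart and Bhlhe41 are shown because Ciart holds several copies and Bhlhe41 was called in all 24 settings. They are printed 5′ to 3′ in windows of 300 bases around the start site (GRCm38.p6, minus strand), with each E-box in capitals, Ciart at chr3:95882179-95882478 and Bhlhe41 at chr6:145865371-145865670.

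Ciart: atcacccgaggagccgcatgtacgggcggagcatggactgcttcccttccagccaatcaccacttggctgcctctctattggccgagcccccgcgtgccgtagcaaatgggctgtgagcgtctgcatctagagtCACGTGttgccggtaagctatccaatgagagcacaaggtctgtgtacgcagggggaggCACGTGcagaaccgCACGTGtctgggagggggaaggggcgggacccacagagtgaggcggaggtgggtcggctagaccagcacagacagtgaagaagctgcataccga
Bhlhe41: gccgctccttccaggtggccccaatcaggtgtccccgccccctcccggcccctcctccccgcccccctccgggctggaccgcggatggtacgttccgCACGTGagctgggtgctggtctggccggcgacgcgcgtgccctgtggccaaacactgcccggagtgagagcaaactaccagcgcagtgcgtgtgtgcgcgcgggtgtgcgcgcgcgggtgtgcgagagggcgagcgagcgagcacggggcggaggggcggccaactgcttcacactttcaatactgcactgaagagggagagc

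The Ciart window holds 3 copies and the Bhlhe41 window 1. Of the 15 clock genes with a promoter in the table, 5 (33.3%) held the motif on either strand, namely Per1, Cry1, Tef, Ciart and Bhlhe41, against 10.9% of 12631 tested genes with a promoter. The motif reads the same on both strands, and a match is a description of the letters only.

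**Figure D4:**
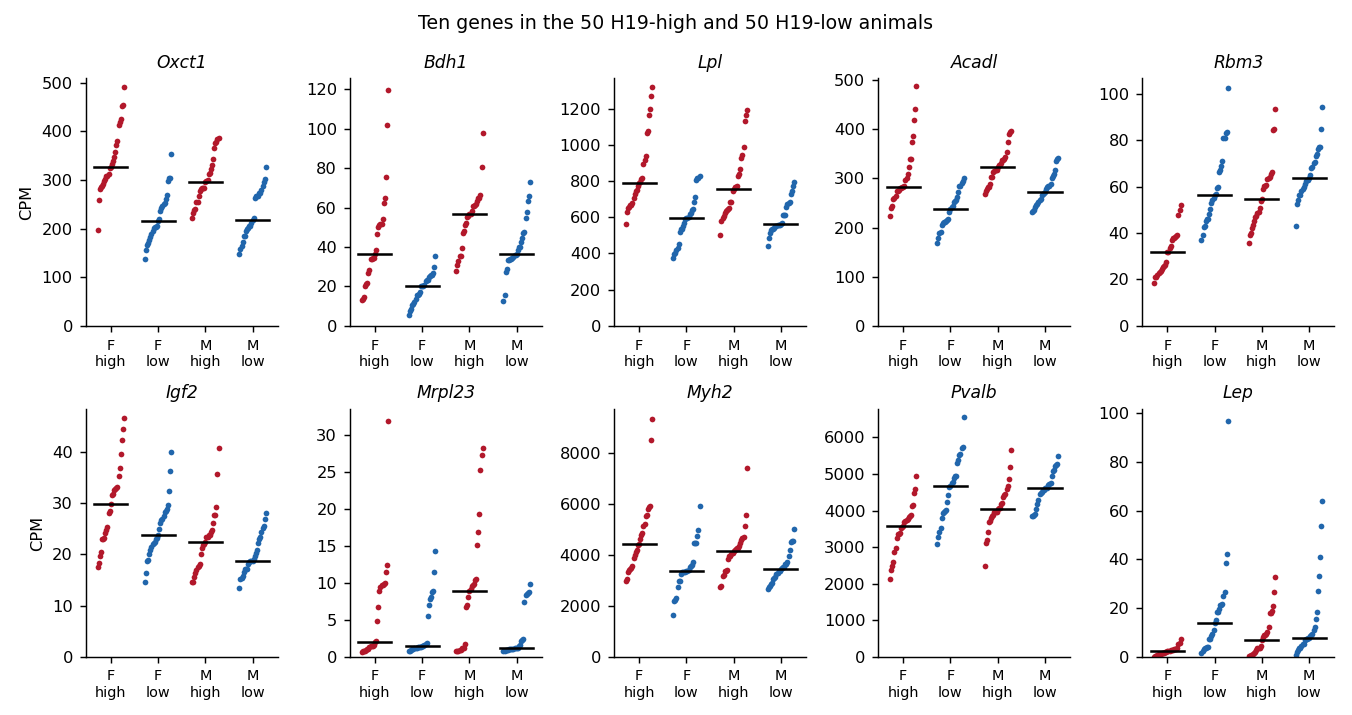
CPM of 10 genes in each H19-high (red) and H19-low (blue) animal, females (F) and males (M) apart, 25 animals per column in order of their value, with black bars at the medians. Oxct1, Lpl and Acadl are shifted up in the high class of both sexes, Rbm3 is shifted down more in females (medians 31.7 and 56.5 CPM) than in males (54.7 and 64.0 CPM), and Mrpl23 is split into low and high modes.

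By size of the difference, the 10 largest rises among called genes with a mean of at least 1 CPM and mean differences of one sign in both sexes and all 5 generations were Fabp3-ps1, Mup10, Fmn1, Mrpl23, Cxcl13, Cyp2e1, Gmnn, Ifitm1, Bdh1 and Tmem82, with log2 differences from 5.40 down to 0.79. The 10 largest falls were Gstp-ps, Gm9800, Lep, Nnat, Dbp, Rcor2, Col9a1, Ciart, Golga7b and Inha, from -4.74 to -0.63. The calls of Ifitm1, Gm9800 and Cxcl13 were made in 9, 12 and 15 of the 24 settings, those of Fmn1, Rcor2 and Col9a1 in 17 each and that of Tmem82 in 18. Several of these genes rest on a minority of animals. Fabp3-ps1, a pseudogene of the fatty acid binding protein gene Fabp3, was over 10 CPM in 12 H19-high and 4 H19-low animals and reached 541.01 CPM. Its class medians were 0.706 and 0.522 CPM and its class means 62.7 and 14.4 CPM. Its log2 difference ran from 0.69 to 6.04 over the 24 settings, and its slope in the animals of neither class was -0.70 per unit of H19 on the variance-stabilized scale (adjusted p = 0.747). Gstp-ps was over 1 CPM in 3 and 14 animals. Both, like Gm9800 and the major urinary protein genes Mup9 and Mup10, have near-identical copies in the genome, so their counts are uncertain. Mup10 was at 0 in 19 H19-high and 30 H19-low animals, and its median in females was 5.41 CPM in the high and 0.0344 CPM in the low class. In males both medians were 0 CPM, and the gene had too few counts to be fitted in males alone. Cyp2e1, a cytochrome P450 of acetone and fatty acid metabolism best known from liver, ranged from 2.88 to 86.7 CPM in the high and from 1.93 to 34.3 CPM in the low class (1.04 ± 0.23, adjusted p = 0.00173).

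The same genes were then followed in the 185 females and 189 males that had not been chosen. There, each gene was fitted against H19 itself, and the slope is the log2 change per unit of H19 on the variance-stabilized scale. The chosen classes differed by 1.91 such units, while the remaining animals spread with an SD of 0.36 within their groups. In these animals 118 of 18776 genes (0.628%) were called, 82 with a rising slope (0.437%) and 36 with a falling one (0.192%). Of the 118, 66 (55.9%) were also called between the classes, which is 5.78% of the 1142, and all 66 had the same sign. Of all 1142 called genes, 1009 (88.4%) had a slope of the same sign in the unchosen animals, against 64.7% of all genes fitted in both, and 36.3% had that sign with an unadjusted p under 0.05, against 8.92% of all genes.

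Among the 5 genes with the strongest correlation with H19 in the unchosen animals, taken over variance-stabilized values after subtracting group means, were Rbm3 (r = -0.30), Oxct1 (0.29), Acadsb (0.27) and Dbt (0.27). These correlations are over the animals of neither class, which share library processing, and are given as a description. The slope of Oxct1 was 0.22 per unit (adjusted p = 0.000283), against 0.26 per unit between the classes, and that of Rbm3 -0.30 per unit (adjusted p = 0.000283), against -0.30. Lpl, Acss2, Hadhb, Cpt2, Echs1, Ivd, Ppm1k, Cirbp, Hspd1 and Mup10 were also called in the unchosen animals, with slopes of 0.17, 0.17, 0.09, 0.12, 0.10, 0.13, 0.20, -0.18, 0.11 and 2.38 per unit. Of these, Mup10 was a gene near 0, with a median of 0.00569 CPM and a highest value of 92.1 CPM in the unchosen animals. Igf2 was just inside the threshold again, with a slope of 0.16 (adjusted p = 0.0485, and 0.0922 under limma), against 0.12 per unit between the classes. Mrpl23 did not pass (0.70, adjusted p = 0.123).

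By list, 3 of 19 fatty acid oxidation enzymes, 2 of 8 ketone and acetate enzymes and 5 of 20 branched-chain amino acid enzymes had a called rising slope and none a falling one. No slow-fibre, fast-fibre, clock, glycolysis, erythroid or atrophy gene was called in the unchosen animals. Their median slopes were 0.01, -0.02, 0.02, -0.03, 0.08 and 0.02 per unit, against -0.00118 over all genes tested. Of 10 fatty acid synthesis enzymes, 4 had a called rising slope there (Fasn 0.69, Acaca 0.34, Acly 0.36 and Elovl6 0.90 per unit; adjusted p = 0.0247, 0.00613, 0.0247 and 0.00170), while none passed between the classes. Pigr, Muc13, Vil1, Slc2a5 and Mgam, named after their values were seen, were called there too (slopes 1.59, 1.23, 0.88, 1.36 and 0.86 per unit). These 5 were near 0 in most muscles (Pigr had a median of 0.0668 CPM and reached 31.7 CPM in one animal), and none of the 5 passed under limma on the deposited values. Of the 4 synthesis enzymes, Acaca alone passed under limma.

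**Figure D5:**
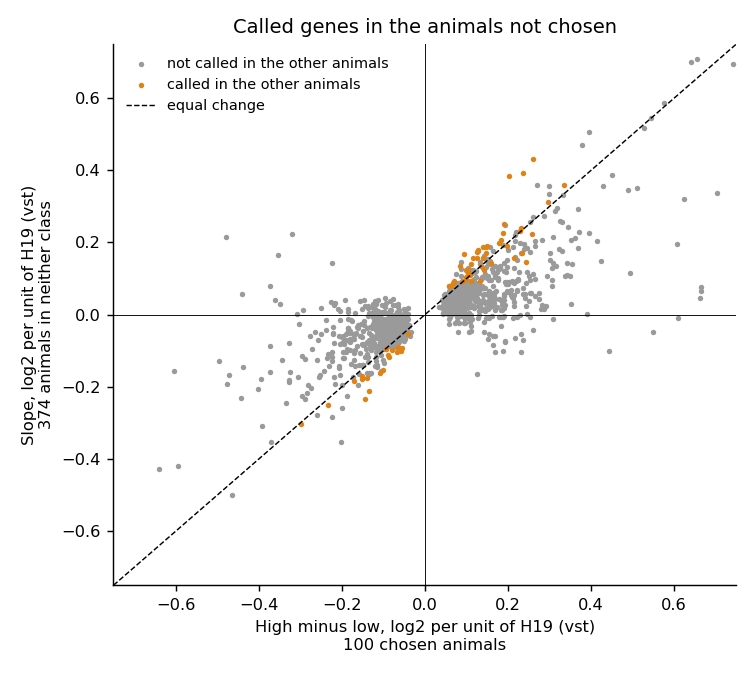
Genes called between the classes, with the log2 difference per unit of H19 in the 100 chosen animals on the x axis and the slope in the animals of neither class on the y axis; orange points were also called there, the dashed line marks equal change, and 13 of the 1142 genes lie outside the axes. Most points lie in the quadrants of equal sign, and most lie closer to zero on the y axis than on the x axis.

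The sexes were also fitted apart. In females 815 of 17829 genes were called (4.57%) and in males 27 of 17600 (0.153%), and 11 genes were called in both. The contrast in H19 was of like size, 1.97 units in females and 1.86 in males. At an unadjusted p under 0.05 there were 3175 genes in females and 2132 in males. Among genes called with the sexes together, the median absolute log2 difference was 0.26 in females and 0.16 in males, and over all genes it was 0.10 and 0.087. The difference between the sexes was tested directly, and 9 of 18615 genes (0.0483%) had a sex-dependent difference, so a call in females and not in males does not by itself show that the sexes differ. Without the library that goes against its sex label, 5 genes kept such a call, Rbm3 and Bhlhe41 among them.

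Rbm3 was one of the 9, with a difference of -0.91 in females and -0.23 in males (interaction 0.69, adjusted p = 0.0185). Bhlhe41 was another, lower by -0.97 in females and -0.14 in males (interaction 0.84, adjusted p = 0.0383). Genes called in males included Oxct1 (0.39, adjusted p = 0.0170), Lpl (0.37, adjusted p = 0.0170) and Hadhb (0.24, adjusted p = 0.00678), which were called in females as well (0.60, 0.52 and 0.27). No gene had a difference that depended on generation (0 of 18615, 0%), with 1228 genes at an unadjusted p under 0.05, and limma on the deposited values also found 0.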

How the data were processed

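RNA was sequenced from gastrocnemius muscles of Diversity Outbred mice. Per the study's methods, the authors joined the mates, aligned them to a transcriptome of the 8 founder strains, and estimated counts with EMASE and GBRS. They kept 20612 genes and deposited expected counts, of which 68.6% of values are whole. They also deposited variance-stabilized values made with DESeq2, a score close to log2. A deposited annotation table gives gene positions in Mb, which are called other here because they are no measurement. The submitters' processing notes name GRCm38 and DESeq2. Kit strandedness in counting is not given in the sources used here.

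Groups came from the sex and number in each title, and reading that number as a generation is an assumption, since the study's methods name generations 18, 19 and 21 while the titles also hold 17 and 23. The study's DO wave is not in the labels and was not a covariate. For 2 pairs of libraries the columns stand in exchanged places relative to the sample list, and each column was used under the name it carries. One of these pairs is the H19-low female that carries RNA against its sex label and a generation 19 male of neither class that also does. Whether names were exchanged was not tested. Before testing, the estimates were rounded to whole numbers. Genes were kept with filterByExpr (minimum count 10), which left 18615 besides H19, scaled by TMM, and tested with edgeR 4.0.16 quasi-likelihood tests (R 4.3.3) with the 10 groups as covariate, Benjamini-Hochberg adjustment over all genes and a threshold of 0.05. The slope in unchosen animals, the sexes apart and the interactions used the same test, and total counts a permutation test (100000 resamples). The fits of the class difference and of the slope were tested on simulated data. Alternatives were limma 3.58.1, DESeq2 1.42.0, other filters, scaling, covariates and animals. Animals are separate mice, so p-values measure spread between animals. The study's eQTL mapping had kinship as a random effect, while relatedness between animals was not modelled here. CPM are from the rounded counts and TMM-scaled libraries.

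Named genes were the 10 largest rises and falls among called genes with a mean of at least 1 CPM and the same sign in both sexes and all 5 generations, a fixed set around H19 and myogenesis, up to 3 called genes of each list, the 5 genes most correlated with H19 in unchosen animals (1 of them is not reported here) and all genes within 0.5 Mb, and further genes chosen after their values were seen. The members and lists were chosen with earlier results of these data known, and 9 lists were added after values were seen.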

Additional observations from a re-analysis of the deposited data

Results flagged for a closer look

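Among the 20 sets of 5 animals (high or low, by sex and generation), 1 held an animal far from the others in H19. The sets are ranked tails chosen by H19 itself, so a chance rate for random sets does not apply to them. The lowest H19-low male of generation 23 had 87.8 CPM, with the nearest of the other 4 at 142 CPM.

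The difference between the classes depended on sex in 9 genes, given as the log2 difference in males minus that in females (edgeR quasi-likelihood interaction, adjusted p from 0.0010 to 0.0478). It was -0.66 for Pcsk5, 0.69 for Rbm3, 0.49 for 2510009E07Rik, 0.87 for Hs6st2, -3.97 for Tmprss2, 0.84 for Bhlhe41 and 0.43 for Znrf2. The Y-chromosome genes Gm21244 and Gm37158 had values of 5.45 and 7.89. Without the H19-low female that carried RNA against its sex label they had 0.02 and 0.13 (adjusted p = 1 for both), and Znrf2 and Hs6st2 also no longer passed (adjusted p = 0.0592 and 0.0660). Under limma, Tmprss2, Znrf2, Gm21244 and Gm37158 did not pass.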

How the results depend on the processing

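Between the classes 3.23% of genes tested were higher, 2.91% lower and 0.505% at least 1.5-fold different. The slope on H19 over all animals called 7.50% and 6.83%, with 0.282% at 1.5-fold per unit of H19. The classes differed by 1.91 such units, so these 1.5-fold shares are on unlike scales. Between the classes the share at 1.5-fold was 0.0591% under limma and 0.418% with the stricter count filter. With cell-type and fibre scores as covariates the shares were 1.54%, 1.17% and 0.231%, and the log2 differences of Alas2 and Myh7, which are part of those scores, were -0.011 and -0.040. Leaving out 1 rank at each end gave 1.14% to 2.67% higher, 0.824% to 2.47% lower and 0.283% to 0.557% at 1.5-fold, lowest without rank 1. Without generation 17 the share lower was 1.75%, and the shares higher and lower were 2.02% and 1.43% without 18, 2.08% and 1.74% without 21, and 1.76% and 1.60% without 23. Taking 10 animals at each end gave 4.97% higher, and 3 gave 1.79% and 1.15%. In unchosen animals, total-count scaling gave 0.266% rising. A high-minus-low contrast of ranks 6 to 10 from each end, in place of the slope, called 0.0917% higher and 0.0378% lower. Males had 16 lower genes with the library block. Without libraries against their sex label, 5 genes depended on sex and 1 on generation. The total-count difference was 1.95 units of 1000000 reads in medians. The cause of these changes was not tested. Of the 1142 genes, DESeq2 still called 98.9%, limma 94.6% and the fit with score covariates 35.4%. The share was 31.3% without rank 1, 42.6% with 3 animals at each end, 48.5% without generation 23 and 49.2% without rank 2. No paired analysis was possible because no number in the labels pairs the animals of the classes.

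Depth was 35.9 to 166 units of 1000000 reads per library, and genes near 0 such as Pigr rest on few reads. H19 class is an observed level and not a treatment. The hour of tissue collection, the DO wave and the genotype are not in the labels used here, and their part was not tested.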
